A study of Homo sapiens with 6 samples.

Results

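Claudins, cadherins and desmosome genes encode the proteins that join epithelial cells to each other. They were taken here as the 68 protein-coding genes, of 58735 gene identifiers counted, whose GENCODE 29 symbol names a numbered claudin, a numbered cadherin, a desmocollin, a desmoglein, a plakophilin or a zonula occludens (TJP) protein, together with DSP, JUP, OCLN, F11R, EPCAM, PCDH1 and CTNND1. The rule goes by name and uses no measured value, but it was chosen with earlier results of these data known. Their RNA was sequenced in the established human line A549, which was derived from a lung adenocarcinoma and carries a wild-type (WT) genotype by its labels. The cells received B35, which the series calls an inhibitor of the histone demethylase LSD1, at 2 µM for 72 h (3 libraries), or were left untreated for 72 h (3 libraries, called control). Both groups grew in the same serum-containing medium, and the labels name no solvent for the control cultures. One line stands for all cells here. Whether each library had its own culture is not said in the labels, so every p-value rests on the spread between libraries alone, which may be technical.

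Epithelial cells hold together through several kinds of junction. In tight junctions, claudins and occludin form the strands that seal the space between cells, and the TJP proteins tie these strands to actin. In adherens junctions, classical cadherins bind the same cadherin on the next cell and hold p120 and beta catenin inside. In desmosomes, desmogleins and desmocollins bind across the gap, and plakoglobin, plakophilins and desmoplakin anchor them to keratin filaments. Epithelial cells of the lung use all of these, and a loss of E-cadherin (CDH1) with a gain of N-cadherin (CDH2) is the classical cadherin change of epithelial-mesenchymal transition.

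The libraries held 17141478 to 18530670 counts each. The keratins KRT7, KRT8 and KRT18 averaged 216, 200.3 and 151 FPKM over the 6 libraries, and the epithelial genes KRT80 and ELF3 averaged 90.1 and 25.6 FPKM. Other epithelial markers were scarce: E-cadherin averaged 0.160 FPKM, KRT19 had 2 to 8 counts per library, and the splicing regulator ESRP1 had no count. Defining markers of other cell types were at or near 0, with 1 count of the leukocyte gene PTPRC in all libraries together and none of the endothelial receptor gene KDR, the fibroblast receptor gene PDGFRA or the glial gene SOX10. The summed level of the 7 endothelial markers, CDH5 and CLDN5 among them, was 1.24 to 1.61 FPKM with B35 and 0.910 to 1.47 FPKM in control cells, and that of the 7 fibroblast markers was 2.01 to 2.33 FPKM with B35 and 2.80 to 2.86 FPKM in control cells, nearly all of it COL1A1. Of the 6 neural and melanocytic markers, MBP and PMEL were called higher, and their list summed to 2.95 to 3.32 FPKM with B35 and 2.08 to 2.17 FPKM in control cells. The part of these markers in the results was not tested. B35 replicate 1 stood apart from the other B35 libraries on the second principal component, which held 20.9% of the variance. Relative to the mean of B35 replicates 2 and 3, its log2(CPM + 1) differed by a median of 0.22 in the genes with the lowest GC content and of −0.30 in those with the highest, when genes were split by GC content into 5 groups of equal size. The part of this shift in the results was not tested. The members followed the same course. Of the 14 tested members with a GC content of 50% or more, 13 were lower in B35 replicate 1 than in the other B35 libraries, and of the 16 with a smaller GC content, 13 were higher, as the plot against GC content shows. CPM here are counts scaled to a common library total with TMM factors.

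**Figure D1:**
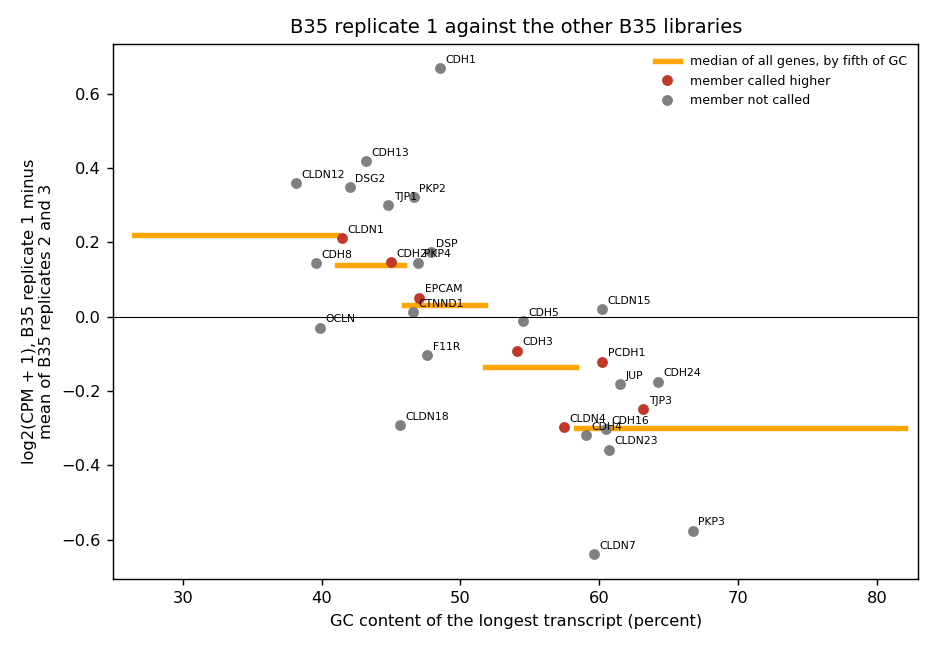
Difference in log2(CPM + 1) between B35 replicate 1 and the mean of B35 replicates 2 and 3 (vertical axis) against the GC content of the longest transcript in percent (horizontal axis), for 29 of the 30 tested members (red, called higher with B35; grey, not called), with the median of all genes in each of 5 equal groups by GC content as orange lines. The medians run from 0.22 at the lowest GC content to −0.30 at the highest, and among the members drawn CLDN7 and PKP3 lie lowest, at −0.64 and −0.58.

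A549 cells used a narrow part of the junction families. Of the 68 members, 22 averaged 1 FPKM or more, 30 had enough counts to test, 21 others had some counts and 17 had none in any library. FPKM, the authors' values per kilobase of gene and scaled to library size, allow levels to be compared between genes. By that measure plakoglobin (JUP), the catenin that desmosomes and adherens junctions share, stood far above the rest at 162 FPKM. Next came desmoglein 2 (DSG2, 30.3 FPKM), p120 catenin (CTNND1, 29.9 FPKM), claudin 1 (CLDN1, 29.8 FPKM), desmoplakin (DSP, 24.1 FPKM), plakophilin 3 (PKP3, 21.0 FPKM) and claudin 7 (CLDN7, 11.6 FPKM), which were the only other members at 10 FPKM or more. The plot of FPKM by library shows that for DSG2, CTNND1 and CLDN1, whose means over all libraries were close, the order depended on the group: CLDN1 was above both in each B35 library and below both in each control library.

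**Figure D2:**
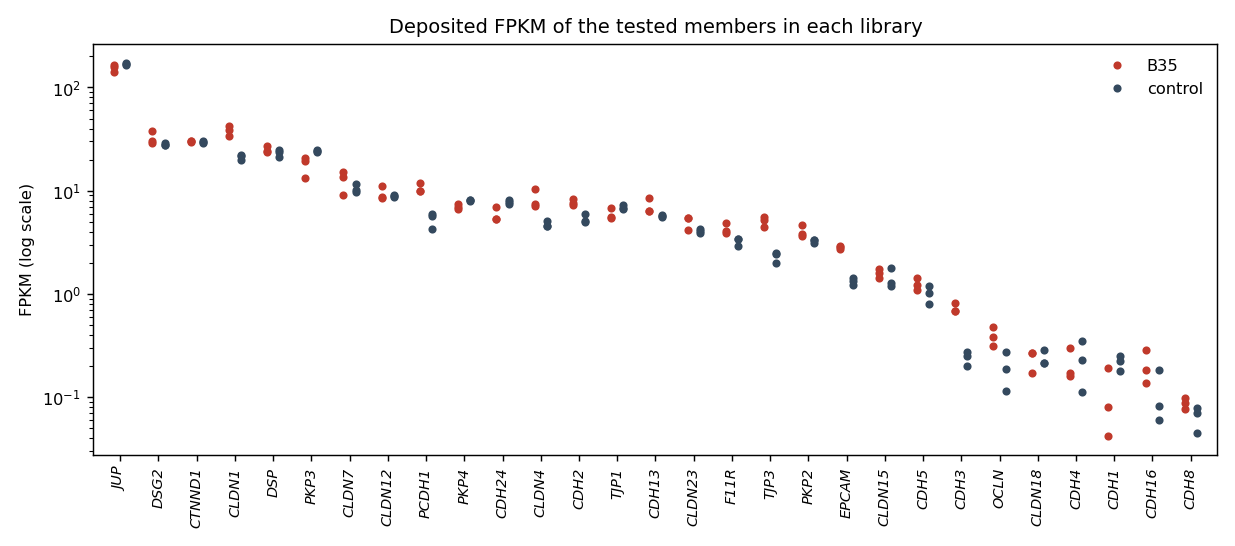
Deposited FPKM of 29 of the 30 tested members (log scale), in order of the mean over all libraries, with the 3 B35 libraries in red on the left and the 3 control libraries in dark blue on the right of each position. JUP leads at a mean of 162 FPKM, and the lowest members, such as CDH16 and CDH8, lie near 0.155 and 0.0761 FPKM.

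Some members with few or no counts lay beside well-expressed ones in the genome. The 7 desmosomal cadherin genes form 1 cluster on chromosome 18 (chr18:30990008-31549008, hg38), in which DSG2 held 20348 counts over the 6 libraries and the other 6 genes held 1 count together, a single read of DSC2. The desmocollins, which pair with desmogleins in desmosomes, were thus at or near 0. CLDN1 and CLDN16 start 65 bases apart on opposite strands of chromosome 3, with 11893 and 14 counts. CLDN4 had 3366 counts, while its neighbour CLDN3 on chromosome 7, 29.3 kb away by the outermost gene ends in GENCODE 29, had none. The 5 numbered cadherins on chromosome 5 held 7 counts in all. A count of 0 in 1 library allows a level of up to 0.158 to 0.178 CPM (3 counts, counting error only). For CLDN22 every exon position is shared with WWC2 on the other strand, so reads of the pair cannot be told apart where counting ignores strand.

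Of the 30 tested members, 7 rose with B35 and none was called lower. They were the tight junction genes CLDN1, CLDN4 and TJP3, the cadherins CDH2 and CDH3, and the adhesion molecules EPCAM and PCDH1 (adjusted p under 0.05 by edgeR, with Benjamini-Hochberg adjustment over 14773 genes). Among all genes tested, 8.82% were called higher and 6.59% lower, or 15.4% in either direction, and 23.3% of the tested members were called higher. No test compares these shares, and they cover only members that passed the filter on low counts. Its cutoff was exceeded in every library by 28 of the 30. The others were CDH16 and CDH1, and CDH1 exceeded it in 3 control libraries but in only 1 B35 library. The tested members had a median log2 fold change of 0.29, against 0.01 for all genes tested. For the count of 0 members lower, DESeq2 called 2 (PKP3 and CDH24), beside 8.64% of all genes tested, and limma-voom none. At an unadjusted edgeR p under 0.05, 4 members had a negative fold change, PKP3, CDH24 and CDH1 among them. The share of all genes at that unadjusted threshold is not given here, so this count is no result about the members. All 7 rises were called in every alternative, except that of CDH2. Without B35 replicate 1, 10 members were called higher, with CLDN7, CLDN23 and F11R added, and CDH1, PKP3 and TJP1 were called lower. There CDH1 passed the filter through the control libraries alone, so its call is a description only. Among all genes of that fit, 12.1% were called higher and 10.1% lower. After removal of each library's trends on GC content and length, 12 members were called higher and 4 lower (CDH24, PKP3, PKP4 and TJP1), among 3859 genes called in all. After that removal, 13.6% of all genes were called higher and 12.6% lower. The members called lower were thus near the share of all genes in both fits, with CDH1 counted in the fit without B35 replicate 1. In RNA from whole cultures, fewer cells of a kind and less RNA per cell cannot be told apart.

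**Figure D3:**
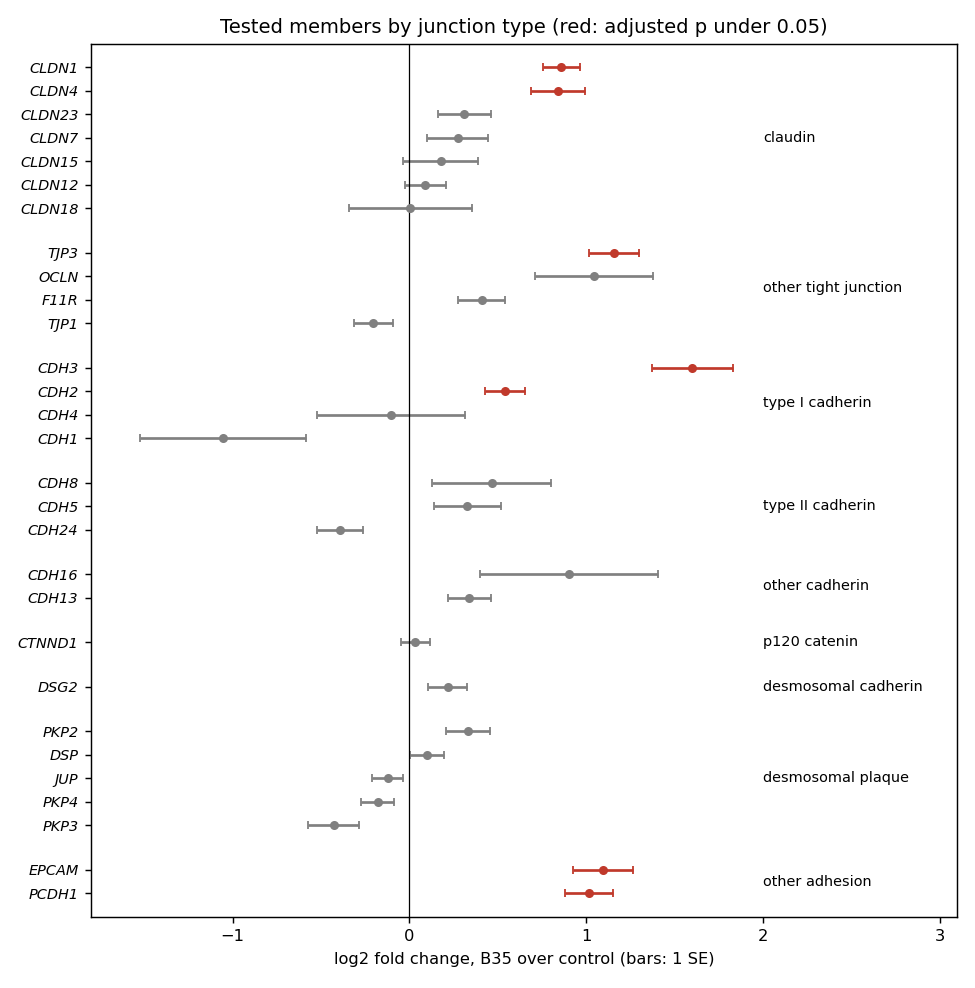
Log2 fold change of B35 over control (horizontal axis, bars of 1 SE) for 29 of the 30 tested members, grouped by junction type. The 7 members with an adjusted p under 0.05 are red and lie from 0.54 (CDH2) to 1.6 (CDH3), and the 6 tested desmosomal cadherin and plaque genes lie from −0.43 to 0.33.

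The stretches before the start sites of the genes that rose are shown because these genes were called higher. RefSeq promoter sequences (GRCh38.p14) matched 45 of the 68 members by symbol, among them 5 of the 7 that rose, and the 250 bases before each start follow, 5′ to 3′ on the gene's strand: CLDN1 (chr3:190322447-190322696, minus), CLDN4 (chr7:73830746-73830995, plus), TJP3 (chr19:3708134-3708383, plus), CDH2 (chr18:28177131-28177380, minus) and PCDH1 (chr5:141869628-141869877, minus). Capitals mark every match, on either strand, to GGGCGG (the GC box), CAGGTG (an E-box that Snail and ZEB repressors bind), TGANTCA (AP-1), TATAAA (the TATA box) or GGAATG (TEAD).
CLDN1: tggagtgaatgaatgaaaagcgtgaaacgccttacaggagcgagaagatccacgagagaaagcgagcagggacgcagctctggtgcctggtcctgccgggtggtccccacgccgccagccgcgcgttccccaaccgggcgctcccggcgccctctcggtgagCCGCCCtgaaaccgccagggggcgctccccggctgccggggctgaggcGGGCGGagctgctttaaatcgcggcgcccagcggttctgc
CLDN4: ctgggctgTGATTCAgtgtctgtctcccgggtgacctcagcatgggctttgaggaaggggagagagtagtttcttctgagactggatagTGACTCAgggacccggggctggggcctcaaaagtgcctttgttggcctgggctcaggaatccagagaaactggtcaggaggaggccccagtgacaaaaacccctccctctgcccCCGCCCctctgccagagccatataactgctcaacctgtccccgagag
TJP3: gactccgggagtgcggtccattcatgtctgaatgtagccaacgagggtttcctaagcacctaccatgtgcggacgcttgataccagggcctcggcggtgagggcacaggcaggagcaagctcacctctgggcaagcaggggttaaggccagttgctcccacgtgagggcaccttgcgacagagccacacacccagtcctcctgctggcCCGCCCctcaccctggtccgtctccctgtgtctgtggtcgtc
CDH2: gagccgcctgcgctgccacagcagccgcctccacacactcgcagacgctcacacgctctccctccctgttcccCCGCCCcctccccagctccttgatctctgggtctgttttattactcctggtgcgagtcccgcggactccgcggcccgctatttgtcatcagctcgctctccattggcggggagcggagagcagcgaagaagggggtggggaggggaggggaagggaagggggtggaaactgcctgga
PCDH1: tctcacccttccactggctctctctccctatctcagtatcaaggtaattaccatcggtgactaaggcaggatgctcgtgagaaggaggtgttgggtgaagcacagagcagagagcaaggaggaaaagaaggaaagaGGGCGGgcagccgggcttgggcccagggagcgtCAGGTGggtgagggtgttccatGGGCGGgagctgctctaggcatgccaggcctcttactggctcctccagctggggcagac
All 5 hold at least 1 GC box, which 56.9% of the same stretches of 14896 protein-coding genes hold. Of the 17 tested members with a promoter entry, called or not, 13 hold a GC box, 7 the E-box and 2 an AP-1 match. Of the 5, CLDN4 alone holds AP-1 matches, 2 of them, against 5.05% of all promoters with any. PCDH1 alone of the 5 holds the E-box, which 17% of all promoters hold. None of the 5 holds the TATA or the TEAD letters, found in 8.97% and 10.0% of all promoters. These are matches of letters and no measure of binding. The start used for CLDN4 lies 31454 bases from the outermost start in GENCODE 29 and that for PCDH1 9619 bases, while the others lie within 316 bases.

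CLDN1, a barrier-forming claudin of epithelia, was the claudin with the most RNA and the one with the smallest p-value. It had 156, 144 and 126 CPM in the B35 libraries, against 73.4, 82.1 and 79.5 CPM in the control libraries. Every B35 library lay above every control library, and the log2 fold change was 0.86 ± 0.10 (SE, 1.82-fold, edgeR adjusted p = 0.00071). CLDN4, another sealing claudin of epithelia, had 34.1, 35.2 and 50.3 CPM in the B35 libraries, against 21.5, 21.6 and 23.7 CPM in the control libraries. The groups did not overlap, B35 replicate 3 was the highest, and the log2 fold change was 0.84 ± 0.15 (SE, 1.79-fold, edgeR adjusted p = 0.00494). The plot of CPM per library shows these values with the other members that rose.

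**Figure D4:**
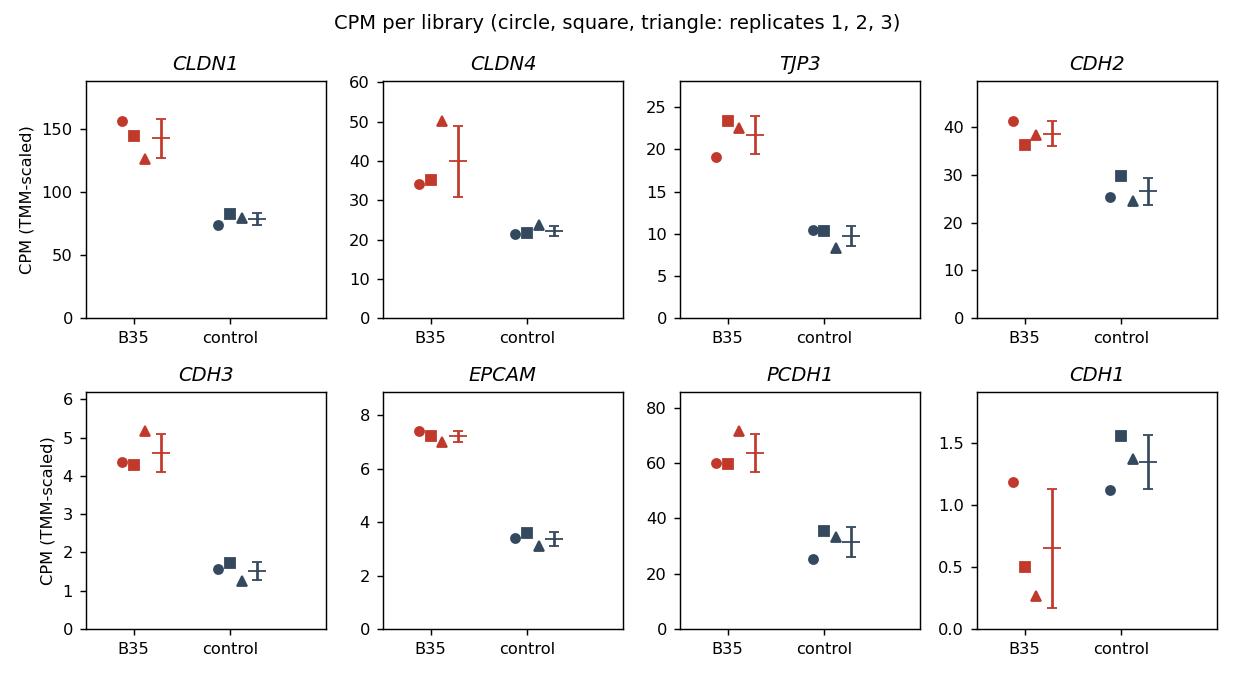
CPM in each library (linear axes from 0) for the 7 members that rose with B35 and for CDH1, with circles, squares and triangles for replicates 1, 2 and 3 and the mean ± SD at the right of each group. B35 libraries (red) lie above all control libraries (dark blue) in the 7, which are drawn because they were called. CDH1, at 0.264 to 1.19 CPM with B35 and 1.12 to 1.55 CPM in control cells, overlaps between groups. Of the 30 tested members, 12 were higher and 5 lower without overlap, beside 18.8% and 17.5% of all genes tested.

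The other 5 tested claudins did not pass. CLDN7, which binds EPCAM in epithelial cells, had 23.0, 38.1 and 34.8 CPM in the B35 libraries and 24.6, 29.3 and 25.5 CPM in the control libraries. B35 replicate 1 was below all controls and the other B35 libraries lay above them, so the pooled log2 difference came to 0.27 ± 0.17 (SE, edgeR adjusted p = 0.314), against 0.46 without that replicate (edgeR adjusted p = 0.0111). AC003688.1 on the same strand shares 10.8% of its exon positions. CLDN12 averaged 64.2 ± 9.72 CPM with B35 and 60.3 ± 1.35 CPM in control cells (SD, n = 3 each), with a log2 difference of 0.09 ± 0.11 (SE), and shares 17.7% of its exon positions with other genes on the same strand. CLDN23 averaged 11 ± 1.65 CPM with B35 and 8.87 ± 0.409 CPM in control cells (SD, n = 3 each), and its call appeared without B35 replicate 1 (log2 0.43, edgeR adjusted p = 0.0441). The pore-forming CLDN15 and the lung and stomach claudin CLDN18 were low, at means of 1.5 and 0.237 FPKM, with log2 fold changes of 0.18 ± 0.21 and 0.01 ± 0.35 (SE). The remaining 17 claudins were not tested. Of these 6 had no count, and the other 11 had at most 59 counts over the 6 libraries, the highest being CLDN9.

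The claudin RNA of a library was larger with B35. Summed over all 24 claudins it came to 75.9, 78.2 and 74.6 FPKM in the B35 libraries, against 48.9, 54.1 and 51.9 FPKM in the control libraries, with no overlap. Most of the difference lay in the called claudins. CLDN1 averaged 38.3 FPKM with B35 and 21.3 FPKM in control cells, and CLDN4 averaged 8.35 and 4.71 FPKM. The sum is thus no result apart from those calls. CLDN1 made up 50.2 ± 5.12% of that sum with B35 and 41.2 ± 0.532% in control cells (SD, n = 3 each), and the lowest B35 library, at 45.1%, was above the highest control at 41.8%. The shares of CLDN12 ran from 11.1% to 14.5% with B35 and from 16.3% to 18.6% in control cells. The share of CLDN4 overlapped between groups, at 9.41% to 14.0% with B35 and 8.43% to 9.71% in control cells. These shares are descriptions and were not tested.

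Among the other tight junction genes, TJP3 (ZO-3), a plaque protein largely limited to epithelia, was the one that rose. It had 19.2, 23.4 and 22.5 CPM in the B35 libraries, against 10.5, 10.4 and 8.33 CPM in the control libraries. The groups lay far apart for their spread, with a log2 fold change of 1.16 ± 0.14 (SE, 2.23-fold, edgeR adjusted p = 0.000746). TJP1 (ZO-1), a related plaque protein with a higher level, did not pass. It averaged 67.8 ± 8.53 CPM with B35 and 78.0 ± 3.86 CPM in control cells (SD, n = 3 each, log2 −0.20 ± 0.11 SE, edgeR adjusted p = 0.230), and was called lower in 3 of 15 alternatives, among them the fit without B35 replicate 1 (log2 −0.31, edgeR adjusted p = 0.0203) and removal of the GC and length trends (log2 −0.23, edgeR adjusted p = 0.0380). The ratio of TJP3 to TJP1 in FPKM was 0.660, 0.989 and 0.963 in the B35 libraries, against 0.340, 0.370 and 0.289 in the control libraries, with no overlap.

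The membrane proteins occludin and JAM-A lay just outside the threshold. OCLN, the first tight junction membrane protein known, had 46, 59 and 41 counts in the B35 libraries, against 23, 14 and 31 counts in the control libraries (log2 1.04 ± 0.33 SE, edgeR adjusted p = 0.0574). F11R, which encodes the junctional adhesion molecule JAM-A, had 20.7, 19.98 and 25.04 CPM in the B35 libraries, against 14.8, 17.5 and 17.2 CPM in the control libraries (log2 0.41 ± 0.13 SE, edgeR adjusted p = 0.0594), and 36.6% of its exon positions are shared with AL591806.3. In both genes every B35 library was above every control library, as in 18.8% of all genes tested. After removal of the trends on GC content and exon length, OCLN and F11R were called higher (edgeR adjusted p = 0.0291 and 0.0227). Of the called members, CDH2 had the largest adjusted p (edgeR adjusted p = 0.0103).

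**Figure D5:**
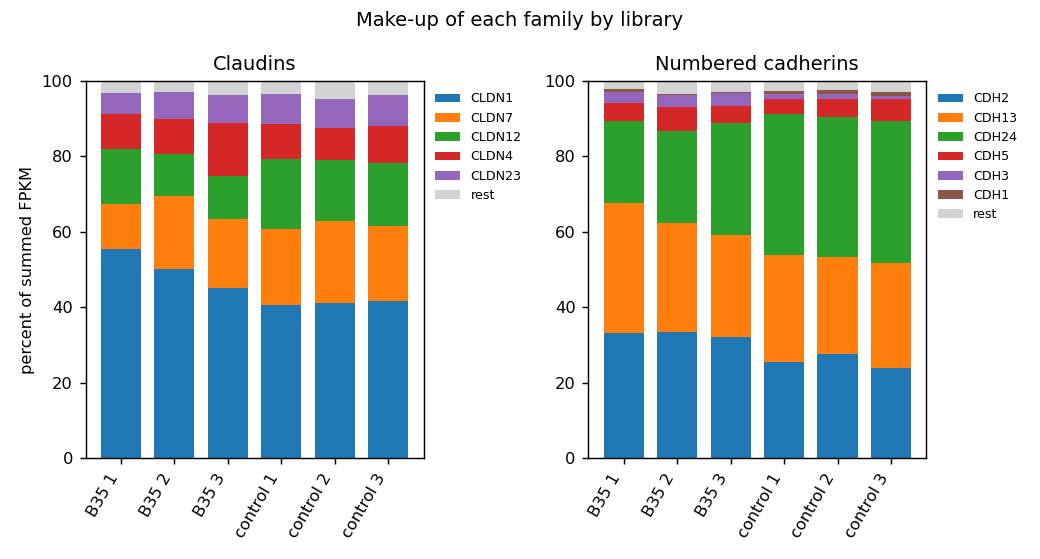
Share of each gene in the summed FPKM of the claudins and of the numbered cadherins (percent, linear axis from 0 to 100), 1 bar per library with the B35 libraries on the left and the control libraries on the right. CLDN1 and CDH2 take a larger share in every B35 library than in any control library, and CDH24 takes 21.6% to 29.6% with B35 and 37.3% to 37.6% in control cells.

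Classical cadherins of type I gave the largest rise among the members. CDH3 (P-cadherin), found in basal epithelia and placenta, had 77, 77 and 98 counts in the B35 libraries, against 28, 31 and 21 counts in the control libraries. In CPM this was 4.6 ± 0.494 with B35 and 1.51 ± 0.238 in control cells (SD, n = 3 each), with a log2 fold change of 1.6 ± 0.23 (SE, 3.03-fold, edgeR adjusted p = 0.00183). Exons of the antisense gene AC126773.2 cover 11.1% of its exon positions. CDH2 (N-cadherin), the cadherin of neural and mesenchymal cells, had 41.4, 36.2 and 38.4 CPM in the B35 libraries, against 25.4, 29.8 and 24.4 CPM in the control libraries. The groups did not overlap, and the log2 fold change was 0.54 ± 0.11 (SE, 1.46-fold, edgeR adjusted p = 0.0103). This call was lost without control replicate 1 or control replicate 3 (edgeR adjusted p = 0.0519 and 0.0719), with log2 fold changes of 0.51 and 0.48.

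CDH1 (E-cadherin) lies 14.6 kb from CDH3 on the same strand of chromosome 16, with no protein-coding gene between them, and did not pass. It had 21, 9 and 5 counts in the B35 libraries, against 20, 28 and 23 counts in the control libraries. B35 replicate 1 was at the level of the controls and the other B35 libraries were below them, with a pooled log2 fold change of −1.05 ± 0.47 (SE, edgeR adjusted p = 0.154). Without B35 replicate 1 the value was −1.81 (edgeR adjusted p = 0.0174), and leaving out any 1 of the other libraries gave no call. CDH1 exceeded the cutoff of the low-count filter in 3 control libraries but in only 1 B35 library. That B35 library was replicate 1, so without it CDH1 passed through the control libraries alone. CDH1 was thus tested through the group where it was higher, and its fold changes, ratios and call without B35 replicate 1 are descriptions only. Antisense AC099314.1 covers 5.62% of its exon positions. CDH2 stood above CDH1 in every library, with a ratio of FPKM of 43.5, 90.4 and 182 in the B35 libraries, against 28.5, 24.0 and 22.3 in the control libraries. The ratio of CDH2 to CDH3 was 12.0, 10.7 and 9.37 in the B35 libraries, against 20.5, 21.9 and 24.7 in the control libraries. CDH4 (R-cadherin) averaged 1.58 ± 0.599 CPM with B35 and 1.70 ± 0.884 CPM in control cells (SD, n = 3 each), and its sign changed with the library left out. CDH15, the muscle cadherin, was not tested, with 12 counts in all.

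No cadherin outside type I was called. CDH24, a type II cadherin and the most abundant of the 13, had 20.3, 19.9 and 26.8 CPM in the B35 libraries, against 28.3, 30.5 and 29.3 CPM in the control libraries (log2 −0.39 ± 0.13 SE, edgeR adjusted p = 0.0672). All B35 libraries were below all controls, as in 17.5% of all genes tested, and it was called lower in 6 of 15 alternatives. Among these were removal of the GC and length trends (log2 −0.46, edgeR adjusted p = 0.00673), DESeq2 (adjusted p = 0.0430) and the fit without B35 replicate 3 (log2 −0.54, edgeR adjusted p = 0.0200). CDH5 (VE-cadherin), known from endothelium, had 128 to 156 counts in the B35 libraries and 87 to 122 counts in the control libraries, beside the scarce endothelial genes PECAM1 (2 to 11 counts per library) and KDR (none). Its log2 difference, at 0.33 ± 0.19 (SE), had an edgeR adjusted p of 0.267. CDH8, a neural cadherin, averaged 1.21 ± 0.151 CPM with B35 and 0.873 ± 0.235 CPM in control cells (SD, n = 3 each), and the other 10 type II genes had at most 7 counts each, 6 of them none.

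CDH13 (T-cadherin), which is held to the membrane by a lipid anchor, had 97.0, 71.3 and 73.3 CPM in the B35 libraries, against 63.3, 62.6 and 65.1 CPM in the control libraries. B35 replicate 1 was the highest, and the log2 fold change of 0.34 ± 0.12 (SE, edgeR adjusted p = 0.0853) was 0.18 without it. CDH13 was called higher in 3 of 15 alternatives, among them removal of the GC and length trends (log2 0.31, edgeR adjusted p = 0.0121). CDH16, the kidney cadherin, had 4 to 19 counts per library (log2 0.90 ± 0.50 SE, edgeR adjusted p = 0.253). CDH17, CDH23 and CDH26 had too few counts to test, at most 27 in all for CDH23. Per length, CDH2, CDH13 and CDH24 made up most of the RNA of the 23 numbered cadherins. CDH2 held 32.9 ± 0.657% of it with B35 and 25.6 ± 1.91% in control cells, and CDH24 held 25.1 ± 4.07% with B35 and 37.5 ± 0.178% in control cells (SD, n = 3 each). CTNND1, the p120 catenin that steadies cadherins at the membrane, had 270, 265 and 270 CPM in the B35 libraries and 256, 262 and 269 CPM in the control libraries (log2 0.03 ± 0.081 SE, edgeR adjusted p = 0.820), and shares 6.93% of its exon positions with a read-through gene and another gene.

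None of the 6 tested desmosome genes was called in the main test. After removal of the GC and length trends, DSG2 and PKP2 were called higher (edgeR adjusted p = 0.0422 and 0.0264) and PKP3 and PKP4 lower (edgeR adjusted p = 0.00117 and 0.0416). DSG2, the desmoglein of simple epithelia, had 238, 181 and 192 CPM in the B35 libraries, against 171, 173 and 181 CPM in the control libraries. Although the groups did not overlap, B35 replicate 2 and control replicate 3 nearly met. The pooled log2 difference came to 0.22 ± 0.11 (SE, edgeR adjusted p = 0.206), and to 0.09 without B35 replicate 1, the highest of the 6. JUP had 711, 822 and 790 CPM in the B35 libraries, against 843, 823 and 861 CPM in the control libraries (log2 −0.12 ± 0.088 SE, edgeR adjusted p = 0.380). DSP, which links the plaque to keratin, had 275, 239 and 248 CPM in the B35 libraries and 217, 242 and 252 CPM in the control libraries (log2 0.10 ± 0.096 SE, edgeR adjusted p = 0.540).

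The plakophilins, which gather the desmosomal cadherins and desmoplakin, differed in sign. PKP3 had 51.4, 78.9 and 75.3 CPM in the B35 libraries, against 94.3, 90.5 and 91.7 CPM in the control libraries. All B35 libraries were below the controls and replicate 1 was the lowest, with a log2 fold change of −0.43 ± 0.14 (SE, edgeR adjusted p = 0.0665). PKP3 was called lower by DESeq2 (adjusted p = 0.0244), without B35 replicate 1 (log2 −0.26, edgeR adjusted p = 0.0357), without B35 replicate 2 (log2 −0.55, edgeR adjusted p = 0.0471) and in other alternatives, 7 of 15 in all. PKP2, the plakophilin also known from heart muscle, averaged 29 ± 4.03 CPM with B35 and 23.0 ± 0.772 CPM in control cells (SD, n = 3 each, log2 0.33 ± 0.12 SE, edgeR adjusted p = 0.0922). PKP4, which sits mainly with cadherins outside desmosomes, averaged 67.9 ± 4.52 CPM with B35 and 76.9 ± 1.28 CPM in control cells (SD, n = 3 each, log2 −0.18 ± 0.091 SE, edgeR adjusted p = 0.210). PKP1, a plakophilin of stratified epithelia, had 1 count in all.

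EPCAM and PCDH1, adhesion molecules outside these junction types, both rose. EPCAM, a surface protein of epithelia and carcinomas, had 7.40, 7.22 and 7.01 CPM in the B35 libraries, against 3.40, 3.60 and 3.09 CPM in the control libraries. The spread within each group was small beside the gap, with a log2 fold change of 1.10 ± 0.17 (SE, 2.14-fold, edgeR adjusted p = 0.00248), though the level stayed low at a mean of 2.07 FPKM. PCDH1, a protocadherin of airway epithelium, had 59.97, 59.6 and 71.6 CPM in the B35 libraries, against 25.5, 35.5 and 33.4 CPM in the control libraries (log2 1.02 ± 0.14 SE, 2.02-fold, edgeR adjusted p = 0.00115).

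Partners and regulators of the junctions were called about as often as genes at large. Of 100 listed genes that are not members, 74 were tested, and 8 rose and 4 fell, beside 8.82% higher and 6.59% lower among all genes tested. Among 17 tested genes of the adherens junction plaque and nectins, TMEM47, a claudin-like membrane protein, rose (log2 0.51 ± 0.12 SE, edgeR adjusted p = 0.0177) and AJUBA, a LIM protein at cadherin junctions, fell (log2 −0.46 ± 0.12 SE, edgeR adjusted p = 0.0283). Both calls were lost without any 1 of the control libraries, and that of AJUBA also without B35 replicate 3. The median log2 fold change of this list was 0.04. Among 24 tight junction partners and polarity scaffolds, PARD6A, a polarity adaptor, rose (log2 0.70 ± 0.18 SE, edgeR adjusted p = 0.0260). MPP5, also called PALS1, the scaffold that ties Crumbs to the tight junction, fell to 54.8, 56.1 and 52.0 CPM in the B35 libraries, against 84.4, 73.8 and 80.1 CPM in the control libraries (log2 −0.55 ± 0.094 SE, edgeR adjusted p = 0.0041). The median of that list was 0.05.

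Of 7 tested desmosome-linked genes, PERP, a desmosomal membrane protein, and the intermediate filament gene VIM rose, and KRT8 fell (log2 0.37 ± 0.093, 0.40 ± 0.11 and −0.57 ± 0.11 SE, edgeR adjusted p = 0.0241, 0.0332 and 0.00611). Of 10 proteases and inhibitors that act on junction proteins, 3 rose and MMP7, a matrix protease that can cut E-cadherin, fell (log2 −0.66 ± 0.13 SE, edgeR adjusted p = 0.00845). The clearest rise was SPINT2, an inhibitor of the surface proteases that act on EPCAM and claudin 7, with 13.7, 18.8 and 17.6 CPM in the B35 libraries, against 6.19, 6.48 and 6.72 CPM in the control libraries (log2 1.37 ± 0.16 SE, 2.58-fold, edgeR adjusted p = 0.000493). PRSS8, a surface serine protease, rose by less (log2 0.46 ± 0.11 SE, edgeR adjusted p = 0.0187). Of 16 tested transcription factors known to act on junction genes, HNF4A alone rose (log2 0.58 ± 0.13 SE, edgeR adjusted p = 0.0140). The E-cadherin repressor SNAI1, named after its value was seen, lay just outside the threshold at 7.11 ± 1.52 CPM with B35 and 4.6 ± 0.0915 CPM in control cells (SD, n = 3 each, edgeR adjusted p = 0.0508). Of the 16, 4 had an unadjusted edgeR p under 0.05 and a positive fold change. The share of all genes at that unadjusted threshold is not given here, so this count is no result about these factors. FOXA1 was also called higher in some alternatives, among them upper-quartile scaling and the fit without B35 replicate 1. PERP and VIM lost their calls without any 1 control library or B35 replicate 2, PARD6A without control replicate 1, control replicate 3, B35 replicate 2 or B35 replicate 3, HNF4A without control replicate 2 or 3, and PRSS8 without any 1 library except B35 replicate 1. The median log2 fold changes of these lists were 0.26, 0.17 and 0.23.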

How the data were processed

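Per the labels' protocols, the library kit was NEBNext Ultra RNA. The submitters' processing notes name HISAT2 2.0.5, featureCounts 1.5.0-p3 and the build hg38. The strand setting of featureCounts is not given in the sources used. The deposited files hold whole-number counts per gene and FPKM values that the authors computed. All 58735 identifiers matched GENCODE 29, which gave symbols, coordinates and exon overlaps. FPKM were used for levels between genes and for shares.

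In R 4.3.3, edgeR 4.0.16 tested the counts of all genes (quasi-likelihood, two-sided), with low genes dropped by filterByExpr at a minimum count of 10 and total of 15, with TMM factors and with Benjamini-Hochberg adjustment over 14773 genes. Each SE was computed as the absolute log2 fold change over the root of F. No 2 libraries of a group agreed within sampling noise (chi-square over its degrees of freedom, 4.46 to 32.3), so none was taken for a library deposited a second time. This does not show that they came from separate cultures. The test was checked on simulated data, with changes set in genes away from the lowest counts. It recovered 50.7% of 1.5-fold, 79.1% of 2-fold and 100% of 4-fold changes, and 10 of its 163 calls were false. A member that was not called may thus still differ. Alternatives were other scalings and filters, each library left out, the replicate number as a term, offsets that remove the trends on GC content and exon length in each library, DESeq2 1.42.0 and limma 3.58.1 (voom).

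The members, lists and alternatives were chosen with earlier results of these data known. Named genes were all members called, CDH1, CDH2, the 3 most abundant tested members of each junction type, and up to 3 called genes per list in order of adjusted p. Other members are given as well, but a few genes are counted without being reported here by name. Python 3.11.15, pandas 2.3.3 and matplotlib 3.10.9 made the tables and plots.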

Additional observations from a re-analysis of the deposited data

How the results depend on the processing

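Among the 15 alternatives, CLDN1, CLDN4, TJP3, CDH3, EPCAM and PCDH1 were called higher in every one and CDH2 in 13. The members called higher numbered 6 to 10 and those called lower 0 to 3 when 1 library was left out. The 3, without B35 replicate 1, included CDH1, which passed the filter there through the control libraries alone. Among all genes tested, 3.87% to 12.1% were then called higher and 1.94% to 10.1% lower. Other junction genes called higher then numbered 1 to 12 and those called lower 3 to 9, and all genes called numbered 881 to 3342, fewest (881) without control replicate 3, 1079 and 1286 without control replicates 1 and 2, and most without B35 replicate 1. Each such fit rests on 5 libraries. Removal of the GC and length trends gave 12 members called higher and 4 lower, 14 and 13 other junction genes, and 3859 genes in all. Of all genes tested, 13.6% were called higher and 12.6% lower in that fit. Adding the replicate block to that fit gave 11 and 3 members, 14 and 13 other junction genes, and 3744 genes, with 13.2% of all genes tested called higher and 12.1% lower. With the replicate block alone, 9 members were called higher and 2 lower, beside 10.8% and 8.54% of all genes tested. Same-numbered libraries correlated at 0.16, 0.02 and −0.06 in their deviations from the group means, so the numbers were not taken to pair them, and not every library correlated best with its own number. With no filter beyond 1 count, 2 members and 7 other junction genes were called lower, beside 4.59% of all genes tested. DESeq2 called 2 members lower, beside 8.64% of all genes tested. The cause of these changes was not tested. With 1 library left out, the log2 fold change of CDH4 ran from −0.46 to 0.34 and was above 0 without B35 replicate 1 (0.06), B35 replicate 2 (0.02) or control replicate 2 (0.34), and that of CLDN12 ran from −0.043 to 0.16 and was below 0 without B35 replicate 1. The filter left 38 members untested, 17 of them with no count and the highest at 59 counts in all.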

Other observations

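Some genes with too few counts for the main test were called when no filter was applied, and they were chosen after their values were seen. TCF4, a helix-loop-helix factor that binds E-boxes, had 15, 9 and 8 counts in the B35 libraries, against 1, 3 and 0 counts in the control libraries (edgeR adjusted p = 0.0114). SPINT1, an inhibitor of surface serine proteases related to SPINT2, had 15, 14 and 9 counts in the B35 libraries, against 1, 4 and 3 counts in the control libraries (edgeR adjusted p = 0.0247). No member outside the 30 tested ones was called in that fit. CDH23, a cadherin of inner ear hair cells, had 1, 6 and 15 counts in the B35 libraries, against 0, 3 and 2 counts in the control libraries, and the B35 libraries did not keep apart from the controls (edgeR adjusted p = 0.178). CLDN14 had 1, 5 and 1 counts in the B35 libraries and none in the control libraries.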
